A study of Mus musculus with 2 samples.

Results

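The genes described here are those of fatty acid uptake and beta-oxidation in the mouse heart. A list of 33 genes was taken, and a probe was assigned to a gene where the platform annotation carried its symbol or a synonym (Adfp for Plin2, Dci for Eci1). Of these, 30 had a probe, 1 each, among 16390 genes with a probe on the array, and all 30 were detected in all 4 hearts. Hadhb, Acot1 and Mlycd had no probe under these names and were not analysed here.

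RNA of whole hearts from male C57BL/6J mice aged 6 months was hybridised to 2 two-colour arrays. The groups were a cardiomyocyte-specific Sirt1 knockout heart after 3 months of caloric restriction by 40% (CR), a knockout heart after 3 months of free feeding (ad libitum, AL), a control heart after CR and a control heart after AL, 1 mouse each. The knockout array paired the knockout CR and AL hearts and the control array the control CR and AL hearts, with CR in Cy3 and AL in Cy5 on both and no dye swap. The labels do not say which promoter drives the deletion of Sirt1, or which alleles the control mice, called WT in the channel names, carried. The design sets the cardiac response to CR in the knockout beside that in the control.

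With 1 heart per condition, no difference has a replicate check, no test was run, and every value describes these hearts only. The diet cannot be told apart from the dye, nor the genotype from the array. Values are log2 signals of normalized intensity and log2 differences, CR over AL or knockout over control. A difference is called when it is at least 1.5-fold, and each count of such members is set beside the percentage of all genes compared that were called. Repeated positive control spots had a standard deviation of at most 0.088 for CR over AL and 0.176 between the arrays, which describes spots and not mice. The deposited local background was over 50% of the spot in at least 1 heart for 29 of the 30 members. It was not subtracted in the values given unless stated. It was high where the spot was bright. In the knockout AL heart it was 25330 for Fabp3 (spot 64310) and 29.2 for Acaa1a (spot 44.5), where blank spots averaged 34.9. Whether it measures the surroundings of a spot was not tested, so values with it subtracted carry that doubt. In whole hearts, fewer cells of a type and less RNA per cell cannot be told apart.

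Sirt1 had log2 signals of 7.51 in the knockout CR heart, 7.07 in the knockout AL heart, 7.53 in the control CR heart and 7.11 in the control AL heart. The probe's place relative to the deleted part is not known here, so this does not check the genotype. Of 12 cardiomyocyte markers 10 had a probe, and all 10 were detected in every heart. Of 5 atrial genes, the light chains Myl7 (-4.06 under CR, -3.95 under AL) and Myl4 (-2.71, -2.47) were lower and the natriuretic peptide Nppa (1.95, 0.99) was higher in the knockout hearts, while Bmp10 (-0.06, -0.00) and Sln (-0.09 under AL) were near 0. Of the white adipocyte hormones, Lep was detected in none of the hearts and Adipoq in both AL hearts but in neither CR heart. Retn was detected in every heart except the knockout CR heart. All their signals, 5.79 to 6.05, lay close to the detection threshold, so detection there does not separate the diets.

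As background, the heart draws most of its energy from fatty acids. Lipoprotein lipase frees them from circulating triglyceride, membrane proteins such as Cd36 take them up, and Fabp3 carries them through the cytosol. They are bound to coenzyme A, passed into the mitochondrion on carnitine, and shortened in a repeated cycle of dehydrogenation, hydration, dehydrogenation and thiolysis. Electrons of the first step reach the respiratory chain through the electron transfer flavoprotein. The nuclear receptor PPAR-alpha, encoded by Ppara, drives many of these genes and binds DNA at paired AGGTCA-like elements.

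Promoter sequences are shown for the called members, and for Plin2 with its opposite responses below, where the single element AGGTCA or its reverse complement TGACCT was found. Sequences are from RefSeq (GRCm38.p6), run 5′ to 3′ on the gene's strand, end at the base before the start site, and carry the element in capitals.
Cd36, chr5:17835897-17836146, minus strand: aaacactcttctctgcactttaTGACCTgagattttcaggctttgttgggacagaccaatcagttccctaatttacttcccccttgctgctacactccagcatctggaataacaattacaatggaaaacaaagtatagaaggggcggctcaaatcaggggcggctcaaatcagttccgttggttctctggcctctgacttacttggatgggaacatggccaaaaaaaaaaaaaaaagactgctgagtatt
Acadvl, chr11:70015429-70015678, minus strand: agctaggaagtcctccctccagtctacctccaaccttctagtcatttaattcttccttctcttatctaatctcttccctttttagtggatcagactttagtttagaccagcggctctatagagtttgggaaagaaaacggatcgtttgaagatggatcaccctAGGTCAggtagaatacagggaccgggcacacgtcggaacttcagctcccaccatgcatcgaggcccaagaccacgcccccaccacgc
Plin2, chr4:86670060-86670309, minus strand: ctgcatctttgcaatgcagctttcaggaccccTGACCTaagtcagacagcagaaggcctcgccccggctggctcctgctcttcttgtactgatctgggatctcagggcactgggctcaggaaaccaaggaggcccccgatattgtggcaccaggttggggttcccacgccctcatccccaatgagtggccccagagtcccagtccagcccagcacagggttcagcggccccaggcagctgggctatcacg

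Of the list, 27 genes had a promoter in the table used, searched on both strands from 250 bases before to 50 bases after the start. The element AGGTCA was in 7 of them (Acadm, Acadvl, Cd36, Cpt1a, Echs1, Plin2 and Plin5), or 25.9%, against 18.1% of 27025 genes. The paired element of PPAR receptors, AGGNCA repeated after 1 base of any kind, was in 0 of 27 (0.451% of all genes) and TCAAGGTCA, bound by estrogen-related receptors, in 0 of 27 (0.466%). Both contain an AGGTCA-like core and so overlap the single element. The E-box CACGTG was in 2 of 27, Plin2 and Slc27a1 (7.41%, against 8.09% of all genes). These are matches of letters in short windows and not sites of binding.

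In the knockout hearts CR moved few of these genes by 1.5-fold: 1 of 30 was called, Fabp3, lower, where 1.52% of all 12142 genes compared were called, 0.758% higher and 0.758% lower. In the control hearts 2 of 30 were called, Fabp3 lower and Acadl higher, where 1.15% of 12658 genes were called, 0.814% higher and 0.34% lower. The members' median was -0.08 on the knockout array and 0.05 on the control array, and the median of all genes was 0.00 on both. Of the 30, 8 were above 0 and 22 below 0 in the knockout hearts, where 50.1% of all genes were above and 49.9% below. In the control hearts 17 were above 0 and 13 below, where 51.4% of all genes were above and 48.6% below. In all, 8 were above 0 on both arrays, 13 below 0 on both, and 9 below 0 in the knockout and above 0 in the control hearts. Many of these values are small, since 18 on the knockout array and 12 on the control array lay within 2 SD of the positive control spots.

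**Figure D1:**
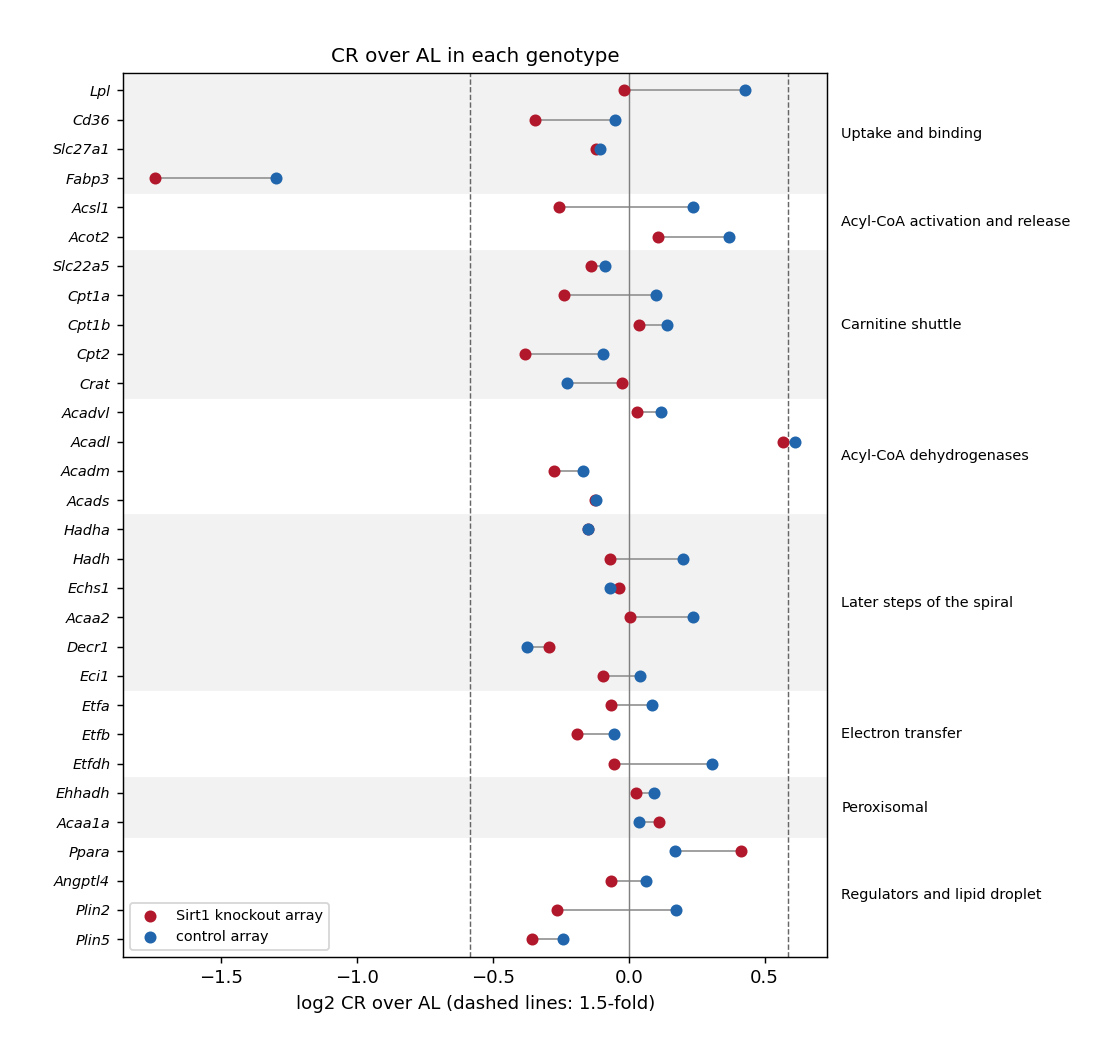
CR over AL for each of the 30 genes (x axis, log2), with the knockout array in red and the control array in blue, 1 heart per diet each, and dashed lines at 1.5-fold. Fabp3 lies far below the dashed line on both arrays, Acadl lies at the upper line on both, and most blue points lie to the right of their red points.

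Fabp3, the cytosolic fatty acid carrier introduced above, had log2 signals of 14.46 (CR) and 16.20 (AL) in the knockout hearts, against 14.65 and 15.95 in the control hearts. CR over AL was -1.74 in the knockout and -1.30 in the control hearts, 3.35-fold and 2.46-fold lower, and both CR hearts were below both AL hearts. The AL spots were at 98.1% (knockout) and 99.4% (control) of the brightest value in the files, 65535 scanner units, and the CR spots at 35.0% and 43.4%. A spot cut off at the limit would make the AL signal too low and the differences too small, and whether that occurred was not tested. Only 1 other gene, the ventricular light chain Myl2, had an AL spot at or above 90% of that value on either array. Myl2 was also lower with CR on both, at -0.69 in the knockout and -0.62 in the control hearts. Without Fabp3, 0 members were called in the knockout and 1 in the control hearts.

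Acadl, the long-chain acyl-CoA dehydrogenase, ran the other way. Its signals were 13.39 (CR) and 12.83 (AL) in the knockout hearts, against 13.04 and 12.43 in the control hearts. CR over AL was 0.57 in the knockout hearts, 1.48-fold and just short of the threshold, and 0.61 in the control hearts, 1.53-fold and just past it. The control value was past 1.5-fold in 7 of 9 settings, with 0.50 from loess within blocks and 0.43 in the authors' deposited table. Here and below, the 9 settings include the values as reported. They also include settings that only filter genes or average probes, which leave a member with 1 probe unchanged. In the knockout CR heart the local background of the Acadl spot was 101% of the spot itself. With the local background subtracted its knockout value was -1.23, taken near the floor of that setting. The other settings gave 0.55 to 0.69 there.

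The other dehydrogenases of the first step, which act on very long, medium and short chains, stayed nearer 0. Acadvl was at 0.03 in the knockout and 0.12 in the control hearts, Acadm at -0.28 and -0.17, and Acads at -0.12 on both arrays. Within this enzyme step the CR values thus ran from -0.28 to 0.57 in the knockout hearts and from -0.17 to 0.61 in the control hearts.

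Of the uptake genes, Lpl, which hydrolyses circulating triglyceride at the vessel wall, had signals of 14.48 (CR) and 14.50 (AL) in the knockout hearts, against 14.37 and 13.94 in the control hearts. Its CR value was -0.02 in the knockout and 0.43 in the control hearts, so the control AL heart alone was low. With loess run within blocks of the array the control value was 0.08, and with the local background subtracted, which was 66.2% (CR) and 75.0% (AL) of the spot on that array, it was 0.95. Cd36, the main fatty acid translocase of muscle, had signals of 13.00 (CR) and 13.34 (AL) in the knockout hearts, against 12.66 and 12.71 in the control hearts. It was at -0.35 with CR in the knockout and -0.05 in the control hearts. The fatty acid transport protein Slc27a1 was at -0.12 and -0.10.

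Acsl1, the main long-chain acyl-CoA synthetase of the heart, had signals of 10.55 (CR) and 10.81 (AL) in the knockout hearts, against 10.03 and 9.79 in the control hearts. It was thus at -0.26 with CR in the knockout and 0.24 in the control hearts. With the local background subtracted these values were -1.56 and 0.22. Acot2, a mitochondrial thioesterase that frees fatty acids from coenzyme A, was at 0.11 in the knockout and 0.37 in the control hearts. Acot1 and Acot2 are close paralogs, and the probe sequence was not available to tell which of their transcripts it binds.

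On the carnitine route no member reached 1.5-fold with CR. Cpt1b, the muscle carnitine palmitoyltransferase of the outer membrane, had signals of 10.97 (CR) and 10.93 (AL) in the knockout hearts, against 10.68 and 10.54 in the control hearts, with CR values of 0.04 and 0.14. Cpt1a, its liver-type counterpart, was at -0.24 in the knockout and 0.10 in the control hearts. Cpt2, the inner-membrane enzyme, had signals of 10.29 (CR) and 10.68 (AL) in the knockout hearts, against 10.47 and 10.56 in the control hearts, and CR values of -0.38 and -0.09. The carnitine importer Slc22a5 was at -0.14 and -0.09, and Crat, which moves short acyl groups between carnitine and coenzyme A, at -0.03 and -0.23.

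The later enzymes were mostly close to 0 in the knockout hearts. Hadha, a subunit of the trifunctional protein, had signals of 11.85 (CR) and 12.00 (AL) in the knockout hearts, against 11.37 and 11.52 in the control hearts, and was at -0.15 with CR in both genotypes. The short-chain hydroxyacyl-CoA dehydrogenase Hadh was at -0.07 in the knockout and 0.20 in the control hearts, and the thiolase Acaa2 at 0.01 and 0.24. The hydratase Echs1 was at -0.03 and -0.07, and the enoyl-CoA isomerase Eci1 at -0.09 and 0.04. Decr1, the dienoyl-CoA reductase needed for unsaturated fatty acids, was lower with CR in both genotypes, at -0.29 and -0.37. The electron transfer subunits Etfa and Etfb were at -0.06 and -0.19 in the knockout hearts, against 0.09 and -0.05 in the control hearts.

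Ppara had signals of 8.57 (CR) and 8.16 (AL) in the knockout hearts, against 8.18 and 8.01 in the control hearts. Its CR value was 0.42 in the knockout and 0.17 in the control hearts, the highest of the 30 on the knockout array after Acadl. The droplet protein Plin5, which links lipid droplets to mitochondria, was at -0.36 and -0.24, and Plin2, which coats droplets, at -0.26 and 0.18. The peroxisomal enzymes Ehhadh and Acaa1a were at 0.03 and 0.11 in the knockout and 0.09 and 0.04 in the control hearts. Angptl4, an inhibitor of lipoprotein lipase, was at -0.07 and 0.07. Acaa1a and Angptl4 were the only members below the median signal of all genes, 1.03 to 1.23 times the detection threshold, so changes in them could hardly have been seen.

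**Figure D2:**
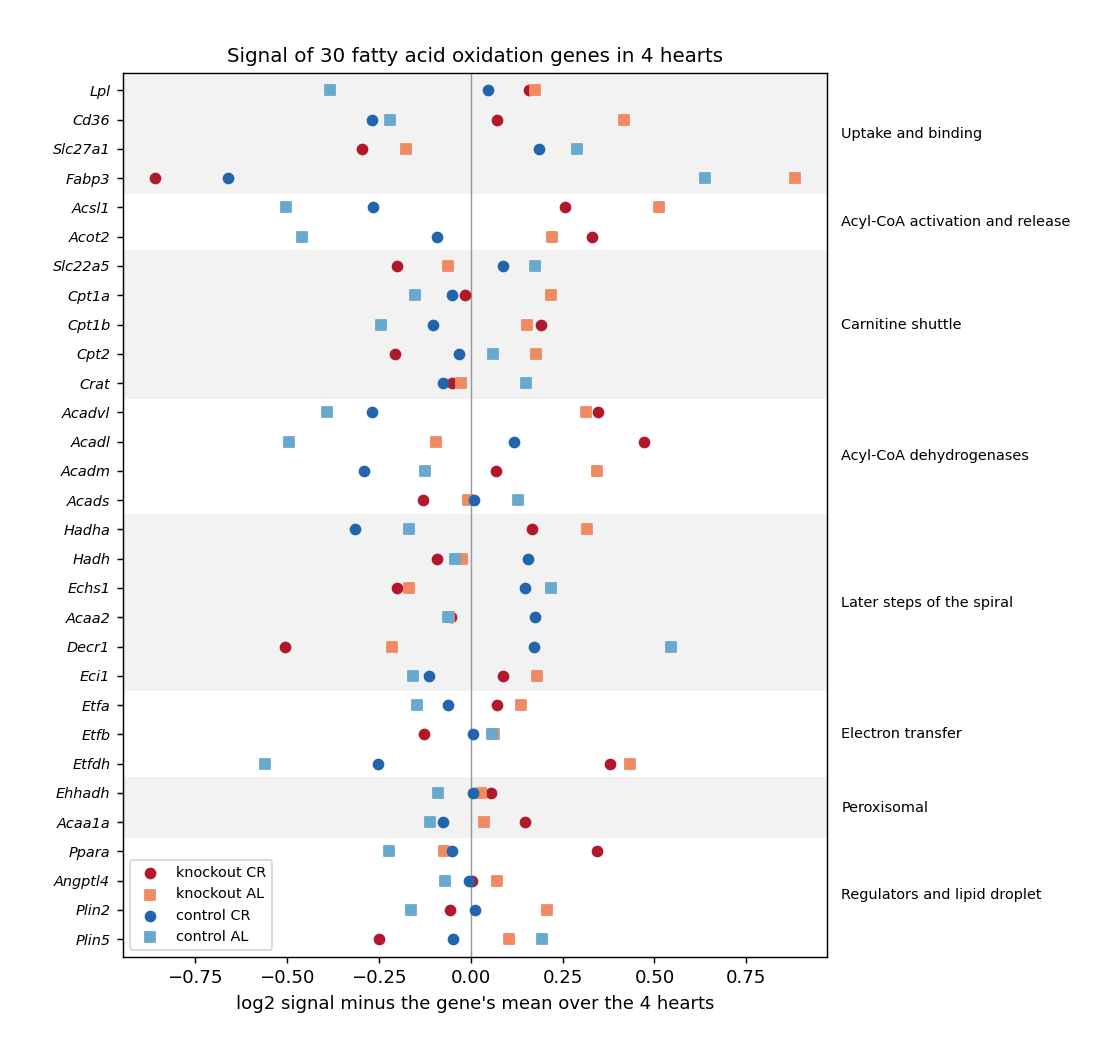
Log2 signal of each of the 30 genes in the 4 hearts, minus the gene's own mean over them (x axis), with knockout hearts in red and orange and control hearts in blue, circles for CR and squares for AL. The CR and AL symbols separate for Fabp3, whereas for Acsl1, Etfdh, Acadvl and Decr1 the knockout symbols separate from the control symbols.

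The response to CR was then compared between the genotypes as the knockout response minus the control response, in which a dye bias equal on both arrays cancels. With the processing used here, 0 of 30 members differed by 1.5-fold, where 0.889% of 11698 genes were called, 0.376% higher and 0.513% lower. The difference was above 0 in 5 of 30 members, against 49% of all genes, and below 0 in 25 of 30, against 51%, with a median of -0.12, against -0.00 for all genes. Acsl1 was the lowest at -0.49, followed by Lpl at -0.45, Fabp3 and Plin2 at -0.44, Etfdh at -0.36 and Cpt1a at -0.34. Ppara at 0.24 and Crat at 0.20 were the highest. The Fabp3 value rests on the AL spots near the scanner limit and ran from -1.004 to -0.078 over the settings, so its place in this order is not settled. With the local background subtracted 8 of 30 members were called, 2 higher and 6 lower, against 5.45% of genes. The 2 higher were Etfa at 4.11 and Etfdh at 0.96. The 6 lower were Acadl at -1.91, Acsl1 at -1.78, Lpl at -1.02, Fabp3 at -1.004, Plin2 at -0.99 and Echs1 at -0.66. For Etfa (knockout AL) and Acadl (knockout CR) that background was 101% of the spot. By step, with the processing used here, the difference was below 0 in 4 of 4 uptake genes and 4 of 4 acyl-CoA dehydrogenases. The same held for 3 of 3 electron transfer genes and 4 of 5 carnitine genes. It was below 0 in 2 of 2 activation genes, 4 of 6 later enzymes, 1 of 2 peroxisomal genes and 3 of 4 regulator and droplet genes. Slc27a1, all 4 dehydrogenases, Etfa and Etfb lay within 2 SD of the positive control spots, 0.159. The authors' ratios placed the 4 dehydrogenases, Etfa and Etfb above 0. Subtraction of the local background placed Etfa, Etfdh and Etfb (0.32) above 0, and among the carnitine genes it turned Cpt2 from -0.29 to 0.50. With median centring in place of loess 21 of 30 were below 0, with the local background subtracted 20 of 30, and by the ratios of the authors' deposited table it was below 0 in 17 of 30.

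Acsl1 and Plin2 pointed opposite ways in the genotypes by more than 2 SD of the positive control spots on each array. Plin2 had signals of 7.96 (CR) and 8.23 (AL) in the knockout hearts, against 8.03 and 7.86 in the control hearts, so that the CR hearts lay between the AL hearts. For Acsl1 both knockout hearts stood above both control hearts, with AL the higher in the knockout and CR the higher in the control hearts. This difference was below 0 in 51% of all genes. It was below 0 in 7 of 10 cardiomyocyte markers (median -0.15), 8 of 8 endothelial markers (median -0.13) and 7 of 8 fibroblast markers (median -0.29). The endothelial Pecam1, Vwf, Cdh5, Emcn and Kdr lay within 2 SD of the positive control spots, 0.159. For macrophage markers it was below 0 in 6 of 8, and for smooth muscle and pericyte markers in 5 of 6. The counts were 4 of 6 for white adipocyte markers (median -0.03), 1 of 2 for brown adipocyte and 1 of 2 for liver markers. The part of these cell types in the result was not tested.

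**Figure D3:**
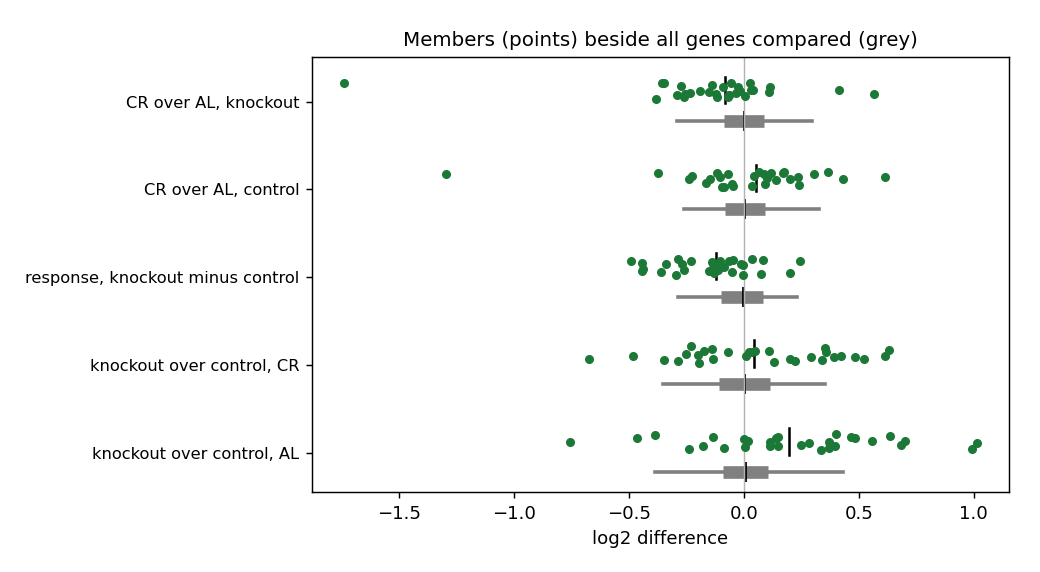
The 30 members (green points, black line at their median) beside all genes compared (grey, thick bar for the middle 50%, thin bar from percentile 5 to 95, tick at the median) in each comparison, as log2 differences on the x axis. The members' medians are -0.08 (knockout) and 0.05 (control) for CR over AL, -0.12 for the difference of the responses, and 0.04 (CR) and 0.20 (AL) for knockout over control, where median scaling gives -0.12 and 0.08.

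Between the genotypes more members differed. Under CR 3 of 30 were called, Etfdh and Acadvl higher and Decr1 lower in the knockout heart, which is 10% of members, against 2.5% of 11957 genes, 1.44% higher and 1.06% lower. Under AL 6 of 30 were called, 20% of members, against 4.36% of 12783 genes, 2.59% higher and 1.77% lower. Acsl1, Etfdh, Acadvl, Acot2 and Cd36 were higher and Decr1 was lower in the knockout AL heart. The members' median was 0.04 under CR and 0.20 under AL, against 0.00 and 0.01 for all genes, and 18 (CR) and 23 (AL) of 30 were above 0. Of all genes 50.9% (CR) and 52.5% (AL) were above 0 and 49.1% (CR) and 47.5% (AL) below, against 12 and 7 of the 30 members below 0. With median scaling of the channels the members' medians were -0.12 (CR) and 0.08 (AL), against -0.01 and 0.00 for all genes, so the sign under CR turned. With the blank mean subtracted before that scaling they were -0.12 and -0.11, but all genes moved as well, to -0.161 and -0.160. The excess of called members also depended on the setting. Median scaling called 1 (CR) and 5 (AL) members, against 3.19% and 4.94% of genes. Blank subtraction called 4 and 8, against 20.5% and 23.1% of genes, and subtraction of the local background 18 and 15, against 21.6% and 19.2%.

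**Figure D4:**
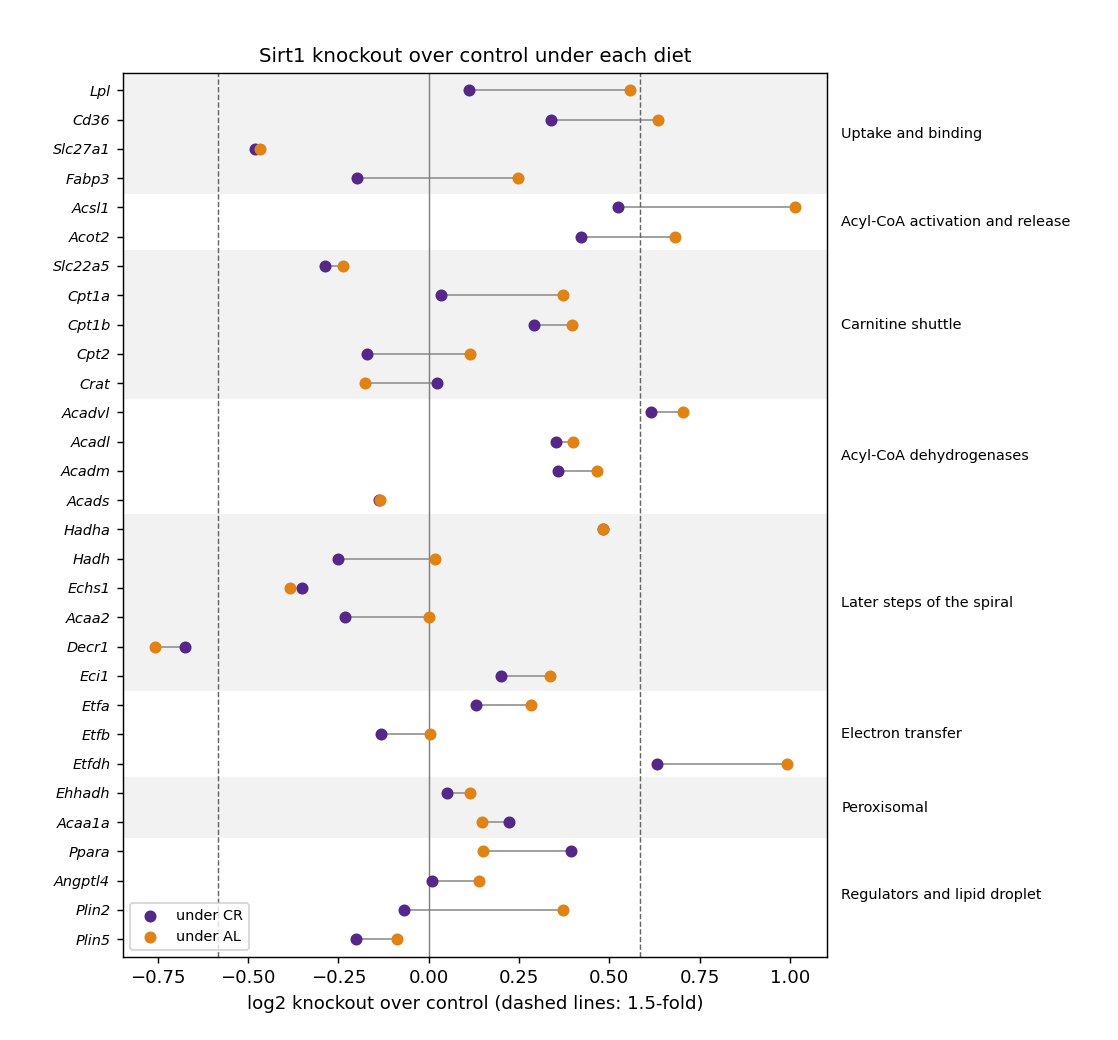
Knockout over control for each gene (x axis, log2) under CR (purple) and AL (orange), 1 heart per condition, with dashed lines at 1.5-fold. Acsl1 and Etfdh lie farthest right under AL, Decr1 farthest left under both diets, and for most genes the orange point lies to the right of the purple one.

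Decr1 was lower in both knockout hearts. Its signals were 9.31 (CR) and 9.60 (AL) in the knockout hearts, against 9.99 and 10.36 in the control hearts. Knockout over control was -0.68 under CR and -0.76 under AL, 1.60-fold and 1.69-fold lower. All 9 settings placed it at least 1.5-fold lower under both diets, from -2.68 to -0.68 under CR and from -2.60 to -0.75 under AL. Those that only filter genes or average probes repeat the reported value. The local background was 90.8% and 85.2% of its spot in the knockout hearts, against 24.0% and 15.0% in the control hearts. Echs1 (-0.35 and -0.39) and Slc27a1 (-0.48 and -0.47) were the next lowest members under both diets. Slc27a1 had signals of 7.58 and 7.70 in the knockout hearts, against 8.06 and 8.17 in the control hearts.

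Acsl1 was higher in the knockout hearts by 0.52 under CR and 1.02 under AL, 1.44-fold and 2.02-fold, from the signals given above. The AL value was past 1.5-fold in all 9 settings, from 0.72 to 2.58, and the CR value in 1 of 9. Etfdh, the oxidoreductase that hands electrons of fatty acid oxidation to ubiquinone, had signals of 12.41 (CR) and 12.46 (AL) in the knockout hearts, against 11.77 and 11.47 in the control hearts. It was higher by 0.63 and 0.99, with CR over AL at -0.06 in the knockout and 0.31 in the control hearts. Median scaling gave 0.29 under CR, and blank subtraction 0.32 under CR and 0.46 under AL, all short of 1.5-fold.

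Acadvl had signals of 13.44 (CR) and 13.41 (AL) in the knockout hearts, against 12.82 and 12.70 in the control hearts, higher by 0.62 and 0.70. These differences were past 1.5-fold in 5 of 9 settings under CR and 6 of 9 under AL. They turned to -0.26 and -0.63 with the local background subtracted. The local background was 75.0% and 81.6% of the Acadvl spot in the knockout hearts, against 47.9% and 41.8% in the control hearts. Acot2 had signals of 7.65 and 7.55 in the knockout hearts, against 7.23 and 6.86 in the control hearts, higher by 0.42 and 0.68. Its local background was 88.4% and 76.1% of the spot in the knockout hearts, against 99.9% and 92.4% in the control hearts, and with it subtracted the AL value was 0.50, short of 1.5-fold. Cd36 was higher by 0.34 under CR and 0.64 under AL. On the control array the local background of the Cd36 spot exceeded the spot, at 108% (CR) and 105% (AL), against 61.2% and 65.3% on the knockout array. Subtraction of the local background therefore gave no usable value for Cd36, and median scaling gave 0.03 and 0.32. The AL value was past 1.5-fold in 7 of 9 settings, among them the local background one, and its lowest was 0.10.

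Below the threshold, Lpl was higher in the knockout heart by 0.11 under CR and 0.56 under AL, where 1.47-fold placed it just outside, and Cd36 at 1.55-fold was just inside. Hadha was at 0.48 under both diets, Acadm at 0.36 and 0.47, Acadl at 0.35 and 0.40 and Cpt1b at 0.29 and 0.40. Acadm had signals of 13.88 (CR) and 14.16 (AL) in the knockout hearts, against 13.52 and 13.69 in the control hearts. Cpt2 was at -0.17 and 0.12, Fabp3 at -0.20 and 0.25, and Ppara at 0.39 and 0.15. The Fabp3 AL value rests on spots near the scanner limit and ran from -0.21 to 0.25 over the settings, so its direction is not settled. The remaining 14 members with a probe lay between -0.29 and 0.37 under both diets.

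Of cardiomyocyte markers, 6 of 10 were above 0 in the knockout heart under CR (median 0.09) and 8 of 10 under AL (median 0.22), with the myosin heavy chain Myh6 at 0.51 and 1.53. Their mean log2 signal was 12.97 (CR) and 12.99 (AL) in the knockout hearts, against 12.83 and 12.63 in the control hearts. Fibroblast markers were above 0 in 7 of 8 under both diets, with Col3a1 at -1.09 under CR. Macrophage markers were above 0 in 7 of 8 (CR) and 8 of 8 (AL). Endothelial markers leaned the other way, with 1 of 8 (CR) and 3 of 8 (AL) above 0. Smooth muscle and pericyte markers were above 0 in 3 of 6 (CR) and 5 of 6 (AL). Of all genes 50.9% (CR) and 52.5% (AL) were above 0. The part of these cell types in the result was not tested. White adipocyte markers detected in every heart (6 of 9) had means of 7.76 and 7.63 in the knockout hearts, against 7.74 and 7.66 in the control hearts.

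**Figure D5:**
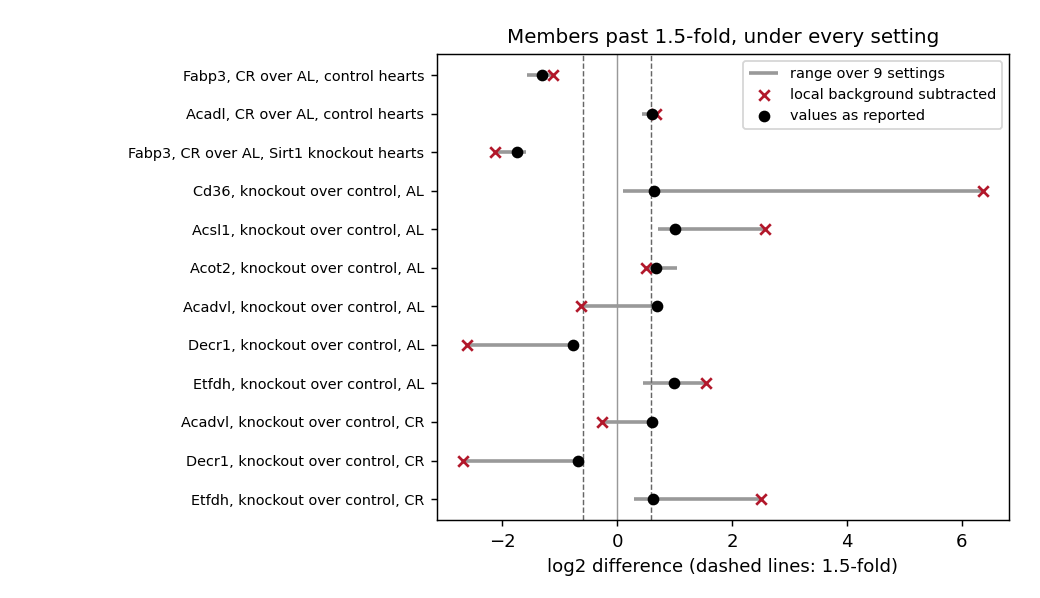
Each member past 1.5-fold (rows) with its reported log2 difference (black), its value with the local background subtracted (red cross) and the range over 9 settings (grey bar). Fabp3 and Decr1 stay past the dashed 1.5-fold lines throughout, as does Acsl1 under AL, while Acadvl crosses 0 and the Cd36 bar reaches 6.36.

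A wider set of 101 genes of lipid handling was read beside the members. With CR, 1 of 81 compared was called in the knockout hearts, against 1.52% of all genes, and 2 of 86 in the control hearts, against 1.15%. G0s2, an inhibitor of the triglyceride lipase Pnpla2, was lower with CR in both, with signals of 8.86 (CR) and 9.63 (AL) in the knockout hearts, against 9.24 and 9.97 in the control hearts. Its CR values of -0.78 and -0.72 stayed past 1.5-fold in all 9 settings. The uncoupling protein Ucp2 was at 0.07 in the knockout and -0.62 in the control hearts, a difference of the responses of 0.68. Its control value was past 1.5-fold in 6 of 9 settings and the difference in 7 of 9. Pdk4, which restrains glucose oxidation, was at 0.54 in the knockout and 0.50 in the control hearts. The ketone-body dehydrogenase Bdh1 was at -0.46 and 0.21, a difference of -0.67. The difference of Bdh1 turned to 0.25 with the local background subtracted. Of the 81 genes, 45 had a difference of the responses below 0, with a median of -0.03.

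Between the genotypes 7 of 83 of these genes were called under CR, 4 higher and 3 lower, against 2.5% of all genes, and 10 of 86 under AL, 5 in each direction, against 4.36%. Their medians were -0.02 and -0.00. Txnip, a glucose-responsive arrestin, was higher by 1.72 and 1.93, the droplet protein Plin3 by 0.79 and 0.92, and the phosphatidate phosphatase Lpin1 by 0.59 and 0.84. Bdh1 was higher by 0.23 and 0.90, the AMPK subunit Prkaa2 by 0.30 and 0.61, and Pparg by 0.65 and 0.17. Under the subtraction of the local background, Txnip was at 0.24, Plin3 at 0.22, Prkaa2 at 0.20 and Bdh1 at -0.47 under AL, and Plin3 was at -1.17 and Pparg at 0.37 under CR, so these calls were lost. Lpin1 under AL was past 1.5-fold in all 9 settings.

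Of 11 genes placed on that wider list as PPAR targets outside oxidation, 6 could be compared under each diet. Under CR 1 was above 0 and 5 below, with 1 called in each direction, and under AL 2 were above 0 and 4 below, with 1 called higher and 3 lower. The gene called higher under both diets was Txnip, the glucose-responsive arrestin named above, at 1.72 (CR) and 1.93 (AL). Over all genes 2.5% (CR) and 4.36% (AL) were called. Pdk4 had signals of 7.80 (CR) and 7.26 (AL) in the knockout hearts, against 8.48 and 7.99 in the control hearts, and stood at -0.69 and -0.73, past 1.5-fold in all 9 settings under both diets. Ucp3, an uncoupling protein of muscle, was at -0.43 and -0.60, and Ucp2 at -0.28 and -0.96. Among other oxidation genes the peroxisome factor Pex11a was at -0.69 and -0.65 and the peroxisomal hydrolase Nudt7 at -0.73 and -0.14. With the local background subtracted the CR values were -0.56 for Pex11a and -0.0056 for Nudt7, both short of 1.5-fold. Agpat2, an acyltransferase of triglyceride synthesis, was at -0.41 and -0.67, and under AL it turned to 0.56 with the local background subtracted.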

How the data were processed

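Each array gave spot and local background intensity in both channels for 23473 probes. The files hold these intensities as deposited, per the file headers, and a deposited table of normalized log2 ratios, CR over AL per the labels. Its values matched the log2 ratio of blank-subtracted spots after a constant, within 0.001 for 17404 of 17405 values (control) and 16554 of 16555 (knockout). Scanner settings are not given here.

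Intensities were corrected with normexp (offset 50, no local background) and loess within arrays in limma 3.58.1 (R 4.3.3). Channel levels were set between arrays with Aquantile. A spot was detected above the trimmed blank mean plus 2 SD (5% trimmed at each end), which 74.0% to 80.7% of probes were, and signal limits precision below that. A symbol was found for 16631 probes, and a gene's brightest probe was used. Promoters are from RefSeq (GRCm38.p6), without chromosome 18. The normexp and loess steps were run on simulated arrays without local background. The step between arrays, which the knockout over control values rest on, and the scanner limit were not simulated.

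Members and lists were chosen with earlier results of these data known. Every member is accounted for. All 4 signals are given for members past 1.5-fold and for those that define a step, and other pathway genes past 1.5-fold are named, up to 4 per list.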

Additional observations from a re-analysis of the deposited data

Results flagged for a closer look

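Acsl1 and Plin2 had responses to CR that pointed opposite ways in the genotypes, beyond 2 SD of the positive control spots on each array. The knockout response minus the control response was -0.49 for Acsl1, with CR over AL at -0.26 in the knockout and 0.24 in the control hearts. For Plin2 it was -0.44, with -0.26 in the knockout and 0.18 in the control hearts. With the local background subtracted the differences were -1.78 for Acsl1 and -0.99 for Plin2. With 1 heart per condition these differences were not tested.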

How the results depend on the processing

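No paired analysis was possible because each genotype has 1 array, and no heart could be left out because each condition has 1. Of the counts and medians over the members, 70 values stayed near the reported value under the alternatives and 30 moved. A median stayed if it shifted by less than the SD of the positive control spots, and a count if within 1.5-fold. Direction was not checked: the median of knockout over control under CR stayed, though it went from 0.04 to -0.10 with the local background subtracted. Some of the 70 come from settings that leave members with 1 probe unchanged. With the local background subtracted, the members past 1.5-fold were 4 (CR over AL, knockout), 5 (control), 8 (difference of the responses), 18 (knockout over control, CR) and 15 (AL), and the control CR median was -0.0135. Of all genes 3.48%, 2.28%, 5.45%, 21.6% and 19.2% were called under that setting, in the same order. That setting also reversed Bdh1 (difference 0.25, AL -0.47), Acadvl (CR -0.26, AL -0.63), Agpat2 (AL 0.56) and Plin3 (CR -1.17). With a normexp offset of 0 the counts were 2 (CR over AL, knockout) and 6 (knockout over control, CR), against 6.64% and 10.8% of genes. Median centring gave 2 in the knockout hearts (1.58% of genes), and loess within blocks 1 in the control hearts (1.21%). The authors' deposited table gave 3 in the knockout and 4 in the control hearts and 1 for the difference, against 13.9%, 13.3% and 13.3% of genes. They include Acaa1a in both genotypes, and Angptl4 in the control hearts and for the difference, both near the detection threshold. The medians were -0.0874 in the control hearts and -0.0312 for the difference. Median scaling gave 1 for knockout over control under CR, against 3.19% of genes, with a median of -0.12. Blank subtraction gave medians of -0.12 (CR) and -0.11 (AL), and moved the medians of all genes to -0.161 and -0.160. For these changes the cause was not tested. Chosen after seeing the data, leaving out Fabp3 gave 0 in the knockout and 1 in the control hearts, against 1.51% and 1.15% of genes. Also chosen after seeing the data, leaving out the 6 members whose local background reached their spot, with that background subtracted, gave 2 and 4 for CR over AL (medians -0.19 and -0.0456), 6 for the difference, and 15 (CR) and 11 (AL) for knockout over control (medians -0.25 and 0.00653). In the same order, 3.46%, 2.28%, 5.43%, 21.6% and 19.2% of genes were called.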
